A study of Homo sapiens with 6 samples.

Results

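DDX5 and DDX17, a pair of paralogous DEAD-box RNA helicases also called p68 and p72, were followed at the RNA level in U-87 cells. The members were chosen by symbol: every probe set that the platform annotation assigned to DDX5 or to DDX17 alone. Each gene had 1 such probe set, so the report rests on 2 of 29096 probe sets, or 2 of 18417 genes, and no probe set named either gene together with another. RefSeq lists a pseudogene, DDX5P1, and whether it shares probe signal with DDX5 was not tested. U-87 (U-87 MG) is a long-established line from a human glioma. The labels give 3 arrays as P68 knockdown and 3 as P68 wild type, all grown in serum-containing medium. Per the treatment note, cells received siP68, which is an siRNA directed at P68, or something abbreviated as NC. Whether NC was given to the wild-type cells is not spelled out, and neither are the siRNA sequence and the time after transfection.

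DEAD-box proteins use ATP to bind and locally unwind RNA. DDX5 and DDX17 share a closely similar helicase core and can pair with each other. Both are known as cofactors of the Drosha complex in microRNA processing, as splicing regulators and as coactivators of transcription factors such as the estrogen receptor and beta-catenin. An siRNA acts on the mature transcript, so DDX5 is the direct target here and DDX17 is the relative that could, in principle, stand in for it.

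The promoter windows of the pair are shown because they place the genes among neighbours measured on the same arrays, described further on. In the RefSeq annotation (GRCh38.p14), DDX5 lies on chromosome 17 and DDX17 on chromosome 22, both on the minus strand. Each window runs from 250 bases before to 50 bases after an annotated start site. RefSeq gave 3 such windows for DDX5 and 1 for DDX17. The outermost DDX5 window shares 162 bases with the window of CEP95, a centrosomal protein gene on the opposite strand. Capitals mark motifs searched by letters on both strands: the TATA box TATAAA, the GC box GGGCGG, the CCAAT box CCAAT, the E-box CACGTG, the ETS motif ACTTCCG, the core TGACGT of the cyclic AMP response element and the YY1 motif GCCATNTT. None of these matches overlaps another in the windows printed.
DDX5, outermost start, chr17:64506589-64506888, minus strand: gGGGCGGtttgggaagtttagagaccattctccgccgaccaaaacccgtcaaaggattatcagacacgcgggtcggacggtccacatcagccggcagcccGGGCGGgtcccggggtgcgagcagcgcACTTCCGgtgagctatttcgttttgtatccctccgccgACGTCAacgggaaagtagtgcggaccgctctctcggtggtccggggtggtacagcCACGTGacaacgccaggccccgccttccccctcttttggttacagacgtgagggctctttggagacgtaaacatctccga
DDX5, middle start, chr17:64506240-64506539, minus strand: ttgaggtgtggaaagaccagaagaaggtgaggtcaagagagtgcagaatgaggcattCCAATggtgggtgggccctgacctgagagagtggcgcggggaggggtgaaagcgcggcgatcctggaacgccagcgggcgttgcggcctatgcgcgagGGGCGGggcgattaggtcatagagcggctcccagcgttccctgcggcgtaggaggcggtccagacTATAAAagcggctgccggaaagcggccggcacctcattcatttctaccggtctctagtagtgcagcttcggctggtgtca
DDX17, chr22:38506262-38506561, minus strand: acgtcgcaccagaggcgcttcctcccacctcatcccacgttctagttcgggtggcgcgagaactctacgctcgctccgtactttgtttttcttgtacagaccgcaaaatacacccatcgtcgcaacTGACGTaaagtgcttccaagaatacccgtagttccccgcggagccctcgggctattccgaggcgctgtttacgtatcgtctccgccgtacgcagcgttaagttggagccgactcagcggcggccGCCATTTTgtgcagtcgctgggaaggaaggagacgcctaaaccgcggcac

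The middle DDX5 window held TATAAA beginning 30 bases before the start site, a motif found in 11.5% of the 35116 windows of this length. The DDX17 window held neither TATAAA nor GGGCGG, and GGGCGG was present in 45.0% of all windows. The DDX17 window held GCCATNTT at the start site itself, which 6.58% of windows contain, and so did the innermost DDX5 window, which is not printed. TGACGT, found in 7.98% of windows, was in the DDX17 window and in the outermost and innermost DDX5 windows. These are letter matches only and say nothing about which factor binds there.

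RefSeq also places 2 microRNA genes, MIR3064 and MIR5047, inside DDX5 on its strand, and none inside DDX17. They are shown as products of the targeted locus, with the seed (bases 2 to 8) in capitals. Neither had a probe set of its own symbol, so their levels were not analysed here.
hsa-miR-3064-5p: uCUGGCUGuuguggugugcaa
hsa-miR-3064-3p: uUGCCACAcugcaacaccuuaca
hsa-miR-5047: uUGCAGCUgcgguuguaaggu

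The array values were log2 signals made with RMA, which equalises the distribution of signals over arrays. The median signal was 4.32 to 4.37 per array. Nothing states that replicate arrays were from different cultures, and p-values then reflect only the spread among these arrays, possibly a technical one. No adjusted p was under 0.05 for any of the 18417 genes (0.0%, limma with Benjamini-Hochberg adjustment), while 5.09% had an unadjusted p under 0.05. Among 10 markers of glioma and glial cells, VIM, CAV1, NES, GFAP and SPARC were at or above the median gene (4.67), whereas CD44, SOX2, FABP7, S100B and AQP4 were below it. CD44 is known as abundant in U-87, and whether its single probe set, at 3.59, reports its level was not tested. FABP7 and AQP4, and also CD14 (1 of 3 leukocyte markers) and SYT1 (1 of 3 neuron markers), were above every wild-type array on each of the 3 knockdown arrays, as were 5.98% of all genes. Other members of these lists lay the other way, with log2 differences of -0.46 for SPARC, -0.20 for VIM, -0.09 for GFAP, -0.16 for the leukocyte marker PTPRC and -0.09 for the neuron marker SNAP25. The summed linear signal of the leukocyte markers was 38.9 to 41.8 on knockdown arrays and 31.9 to 36.4 on wild-type arrays, where CD14 differed by 0.42 and CD3E by 0.02. The sums of the other lists overlapped between the groups. The glial and glioma markers summed to 439.6 to 546 on knockdown arrays and 441 to 557 on wild-type arrays, and the epithelial markers to 250.3 to 269 on knockdown arrays and 238 to 269 on wild-type arrays. The neuron markers summed to 106 to 109 on knockdown arrays and 97.5 to 106 on wild-type arrays, and the endothelial markers to 34.1 to 36.1 on knockdown arrays and 33.7 to 35.5 on wild-type arrays. All 3 leukocyte markers and both endothelial markers lay below the median gene. Above it were 2 of 5 epithelial markers, KRT8 and KRT18, and 2 of 3 neuron markers, RBFOX3 and SNAP25. KRT18, at 7.345, was brighter than every glial and glioma marker but VIM. The part of these markers in the results was not tested. No detection calls were used, dim signals may thus be background, and on this scale no marker is at 0.

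DDX5, the target of the siRNA, had a lower signal on every P68 knockdown array than on any wild-type array. Its log2 signal was 9.47, 9.79 and 9.91 on knockdown arrays 1, 2 and 3, against 10.09, 10.25 and 10.30 on wild-type arrays 1, 2 and 3. The groups did not overlap, at 9.72 ± 0.23 on knockdown arrays and 10.21 ± 0.11 on wild-type arrays (SD, n = 3 per group), and 0.18 separated the brightest knockdown array from the dimmest wild-type array. The knockdown arrays themselves ranged over 0.44 and the wild-type arrays over 0.21. Set against the wild-type mean on the linear scale, the knockdown arrays held 59.7%, 74.6% and 81.0% of the DDX5 signal, and the wild-type arrays 91.8%, 103% and 106%. Knockdown replicate 1 thus stood lowest, and the labels give no protein or transfection measure to set beside it.

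The log2 difference of DDX5 was -0.49 ± 0.13 (SE, n = 3 each), with a limma adjusted p of 0.902 over all genes and an exact permutation p of 0.1 (two-sided), the smallest that 3 arrays against 3 allow. It therefore did not pass the threshold over all genes. Lower values without overlap were found for 4.15% of all genes. A lower signal in the knockdown was found under every alternative processing tried, with differences of -0.58 to -0.36 when single arrays were left out. Of all 18417 genes, 23 had a lower difference than DDX5 (0.125%) and 61 had a larger difference in either direction. By unadjusted p, 32 genes ranked ahead of it.

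For DDX17, the arrays of the groups overlapped. Its log2 signal was 8.63, 7.65 and 7.90 on knockdown arrays 1, 2 and 3, against 8.17, 7.80 and 7.80 on wild-type arrays 1, 2 and 3. The knockdown group held both the highest and the lowest of the 6 values. Relative to the wild-type mean on the linear scale, the knockdown arrays held 163%, 82.7% and 98.4% of the DDX17 signal, and the wild-type arrays 119%, 91.8% and 91.8%.

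DDX17 averaged 8.06 ± 0.51 on knockdown arrays and 7.92 ± 0.21 on wild-type arrays (SD, n = 3 per group). The log2 difference of 0.14 ± 0.22 (SE) had a limma adjusted p of 0.943 and an exact permutation p of 0.8. On the linear scale this is 110% of the wild-type signal (95% confidence interval 78.5% to 154%). A loss or a rise within that interval was not excluded at this spread. The interval overlaps that of DDX5, 58.4% to 86.9% around 71.2%. The difference became negative, at -0.15, once knockdown replicate 1 was left out, and was 0.34 once knockdown replicate 2 was. It was 0.22 with knockdown replicate 3 omitted and 0.26 with wild-type replicate 1 omitted. Leaving out wild-type replicate 2 or wild-type replicate 3 gave 0.075.

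**Figure D1:**
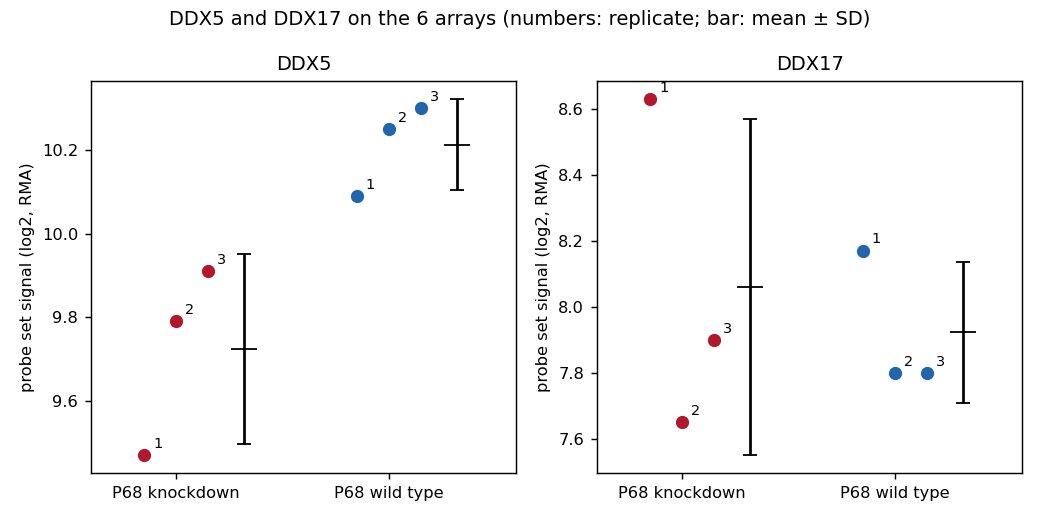
Log2 probe set signal of DDX5 (left) and DDX17 (right) on the 3 P68 knockdown arrays (red) and the 3 P68 wild-type arrays (blue), with replicate numbers beside the points and the mean ± SD as a black bar; the vertical axes differ and do not start at 0. The DDX5 groups are separated, at 9.47 to 9.91 against 10.09 to 10.30, whereas the DDX17 groups overlap and knockdown replicate 1 stands alone at 8.63.

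In each group the array lowest in DDX5 was the array highest in DDX17, and in both it was replicate 1. With 3 arrays a group this is a description, and no relation between the genes was tested from it. The arrays at the other end differed: knockdown replicate 3 was highest in DDX5 while knockdown replicate 2 was lowest in DDX17, and wild-type replicates 2 and 3 had the same DDX17 signal. Whether the paralogs changed unequally was tested on the DDX17 signal minus the DDX5 signal within each array. This value was -0.84, -2.14 and -2.01 on knockdown arrays 1, 2 and 3, against -1.92, -2.45 and -2.50 on wild-type arrays 1, 2 and 3. Its level depends on 2 different probe sets and carries no meaning alone, whereas a change of it between groups would show unequal change of the genes.

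The difference between the changes was 0.63 ± 0.45 (log2, SE), towards DDX17, with a 95% confidence interval of -0.63 to 1.88 and an exact permutation p of 0.3, where 0.1 is the smallest possible. Unequal change of DDX5 and DDX17 was therefore not shown. Without knockdown replicate 1 the estimate was 0.215, so that array supplied most of it. The plot of alternatives shows the same dependence for DDX17 and its absence for the direction of DDX5.

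**Figure D2:**
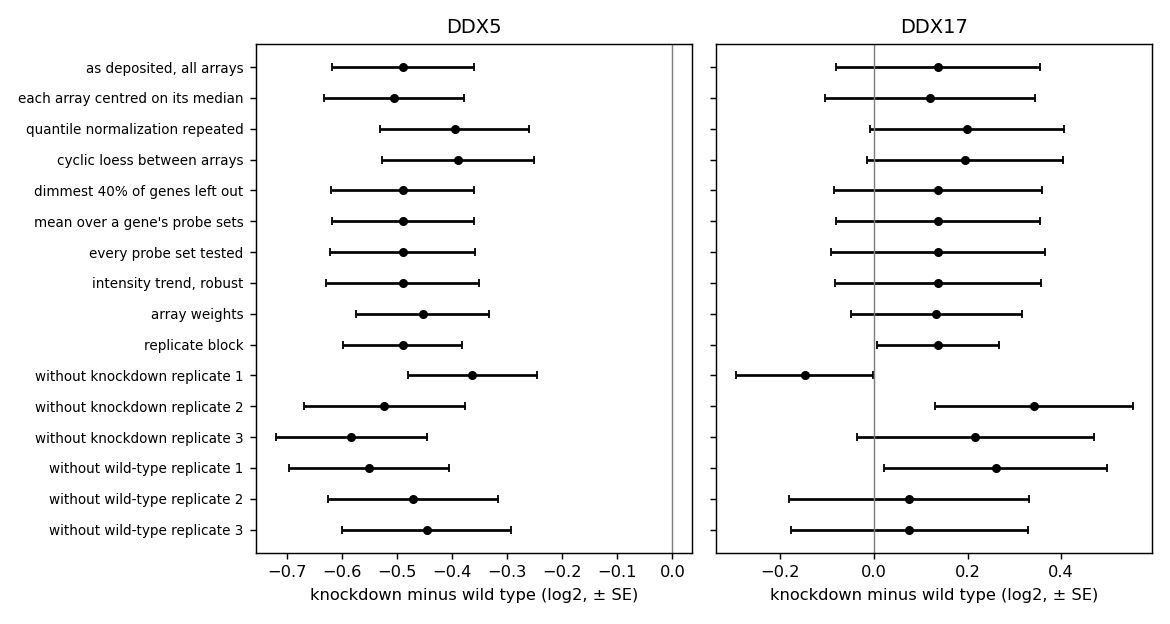
Log2 difference between P68 knockdown and P68 wild type (± SE) of DDX5 (left) and DDX17 (right) as deposited and under each alternative processing, named on the vertical axis. DDX5 lies below 0 in every setting shown, whereas DDX17 lies below 0 without knockdown replicate 1 alone.

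Both genes were among the brightest on the array, DDX5 more so. Averaged over the 6 arrays, 47 genes (0.255%) had a brighter probe set than DDX5 and 304 genes (1.65%) a brighter one than DDX17. Probe sets differ in how well they bind, so these places order signals and not transcript numbers. By array, 69, 48 and 51 genes were brighter than DDX5 on knockdown arrays 1, 2 and 3, against 42, 35 and 35 on the wild-type arrays. DDX5 thus stayed in the top 0.375% of genes on every knockdown array despite its lower signal. For DDX17, 157, 376 and 333 genes were brighter on knockdown arrays 1, 2 and 3, against 253, 388 and 373 on the wild-type arrays. The places repeat the pattern of the signals: DDX5 was lower in order on each knockdown array than on any wild-type array, and DDX17 stood highest on both replicate 1 arrays.

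Genes as bright as these tended to lie slightly below 0 in the comparison. The 43 other genes within 0.5 of the mean signal of DDX5 had a median log2 difference of -0.05. Of these 43, 4 were lower without overlap, beside 4.15% of all genes. None of the 43 had a difference as low as that of DDX5. The 319 other genes within 0.5 of DDX17 had a median of -0.09, and 306 of them lay below the DDX17 value of 0.14. Over all genes the median was 0.01. Normalizing the arrays again by cyclic loess gave DDX5 a difference of -0.39 and DDX17 one of 0.19.

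The spread of the pair differed as well. The SD within groups, pooled over both, was 0.18 for DDX5 and 0.39 for DDX17. Genes of like signal had a median of 0.16 around either gene. A larger pooled SD than that of DDX5 was found for 20 of its 43 neighbours in signal, but a larger one than that of DDX17 for only 16 of 319. On these arrays DDX17 was thus unusually variable within groups for its brightness, and DDX5 was not. The SD of DDX17 was 0.51 on knockdown arrays, where replicate 1 stood apart at 8.63, and 0.21 on wild-type arrays.

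**Figure D3:**
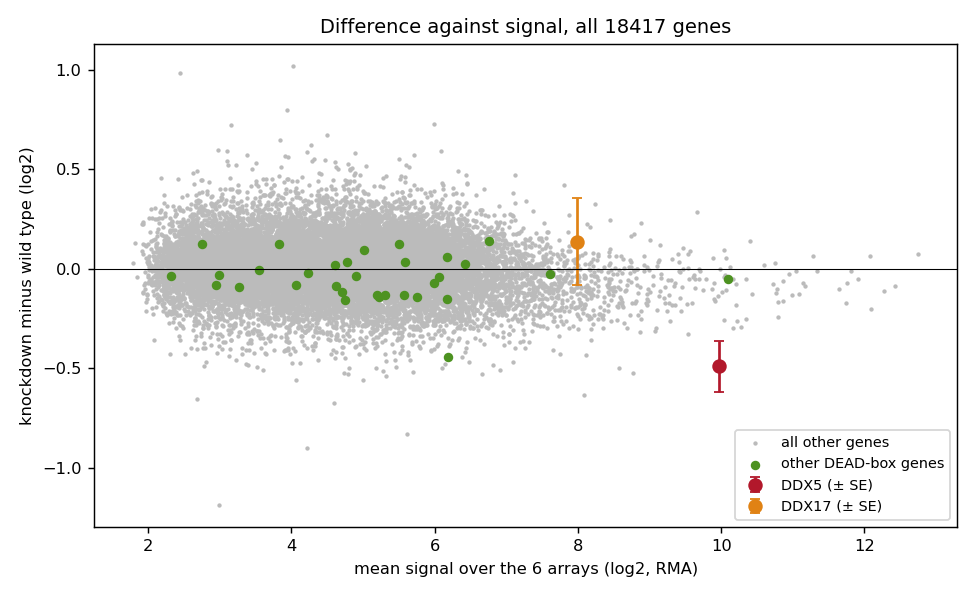
Log2 difference between P68 knockdown and P68 wild type against the mean log2 signal of the 6 arrays for all genes (grey), the other genes with DDX symbols (green), DDX5 (red) and DDX17 (orange), the last pair with their SE. DDX5, at a mean signal of 9.97, has the lowest difference among genes of similar brightness, and DDX17 lies above 0 with an SE that crosses it.

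With all 6 arrays kept, DDX5 had the lowest difference among the helicases named alike and DDX17 one of the highest. The annotation held 32 other genes with a DDX symbol, named for the DEAD or related box, of which 22 lay below 0 and 10 above, with a median of -0.04. The median was -0.02 with knockdown replicate 2 omitted, where 18 lay below 0, and -0.06 with knockdown replicate 1 omitted. None passed the adjusted threshold. In 2 of the 32 the knockdown was lower without overlap (4.15% of all genes) and in 2 it was higher without overlap (5.98% of all genes). DDX1, a helicase of RNA transport and tRNA ligation complexes, was the only one with an unadjusted p under 0.05, in the lower direction where 2.06% of all genes were called. Over all genes that split was 380 lower and 557 higher, but 484 lower and 443 higher with each array centred on its median, and 591 lower and 552 higher with wild-type replicate 1 omitted. DDX1 had 6.08, 5.63 and 6.17 on the knockdown arrays, against 6.28, 6.28 and 6.65 on the wild-type arrays, a log2 difference of -0.44 ± 0.16 (SE). With knockdown replicate 1 omitted, DDX5 gave -0.36 and DDX17 -0.15, and DDX1 then lay below DDX5. The places of the pair among the DDX genes thus depended on that array. DDX56, a nucleolar helicase of ribosome assembly, gave -0.16 ± 0.09 (SE) and, like DDX1, was lower without overlap. At the upper end DDX54, higher without overlap as was DDX43, gave 0.14 ± 0.10 (SE), and DDX41 gave 0.12 ± 0.10 (SE), both close to the value of DDX17. Only 1 of the 34 DDX genes had a larger pooled SD than DDX17, whereas 11 had a larger one than DDX5.

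No chromosomal neighbour of DDX5 was lower without overlap. CEP95, which starts beside DDX5 and runs the other way, had 3.19, 3.35 and 3.20 on the knockdown arrays, against 3.40, 3.22 and 3.33 on the wild-type arrays, and so lay below the median gene in both groups. POLG2, which encodes the accessory subunit of mitochondrial DNA polymerase, had a log2 difference of 0.04 ± 0.15 (SE), and MILR1, an immunoglobulin-like receptor gene, 0.02 ± 0.10 (SE). PECAM1, an endothelial adhesion molecule, gave 0.09 ± 0.10 (SE). On the other side, the ubiquitin ligase SMURF2 gave -0.12 ± 0.12 (SE) and the G protein subunit GNA13 -0.12 ± 0.10 (SE). In none of these 6 neighbours were the groups free of overlap (10.1% of all genes were), and their limma adjusted p lay between 0.912 and 0.983.

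Around DDX17, the peak on replicate 1 of both groups recurred at TMEM184B and at no other neighbour named here. This transmembrane protein gene had 7.13, 6.65 and 6.47 on knockdown arrays 1, 2 and 3, against 6.98, 6.43 and 6.57 on the wild-type arrays. KDELR3, whose protein returns escaped proteins to the endoplasmic reticulum, overlaps the end of DDX17 in the annotation from the opposite strand. It had 4.20, 3.73 and 3.70 in the knockdown, against 3.88, 3.68 and 3.93 in the wild type, highest on knockdown replicate 1 but, within the wild type, on replicate 3. The potassium channel gene KCNJ4 and the meiotic recombinase gene DMC1 were higher without overlap, by 0.11 ± 0.10 and 0.10 ± 0.09 (log2, SE), where 5.98% of all genes were. FAM227A gave -0.22 ± 0.14 (SE) and CBY1, a Wnt antagonist, 0.07 ± 0.11 (SE). None of the 6 passed the adjusted threshold.

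The genes most like DDX5 over the 6 arrays were found by Pearson's r among 4240 genes at or above the median signal and with an SD of at least 0.15. They share the arrays and their normalisation, and with so many candidates and only 6 points high values arise widely: 48 genes (1.13%) reached 0.9 and 45 (1.06%) reached -0.9. KCNJ2, an inward rectifier potassium channel gene, came first with r = 0.997. It had 5.20, 5.44 and 5.60 on the knockdown arrays, against 5.75, 5.86 and 5.93 on the wild-type arrays, the same order of arrays as DDX5. MAPK1IP1L (0.983), the importin KPNA6 (0.975), the telomerase RNA TERC (0.970) and the chromatin remodelling gene BAZ1A (0.961) followed. Most opposed were the ciliary gene B9D2 (-0.967), the splicing factor gene SART1 (-0.967) and the myelin enzyme gene CNP (-0.961).

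TERC had 7.90, 8.12 and 8.07 in the knockdown, against 8.29, 8.32 and 8.39 in the wild type. Its groups were apart, as were those of KCNJ2 and MAPK1IP1L, while KPNA6 and BAZ1A each overlapped. Over all genes 4.15% were lower without overlap, but genes chosen for following DDX5, itself without overlap, are likely to be apart too. After centring within groups, which removes the knockdown difference, r was 0.989 for KCNJ2, 0.935 for MAPK1IP1L, 0.993 for KPNA6, 0.881 for TERC and 0.994 for BAZ1A. These values and the separation come from the arrays that chose the genes and are a description.

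For DDX17 the same rule gave PRELID1 (r = 0.996), TMED4 (0.994), EFCAB14 (0.993), DNAJB1 (0.991) and RBL2 (0.983). PRELID1 moves lipids in mitochondria, TMED4 carries cargo from the endoplasmic reticulum, DNAJB1 is a cochaperone of HSP70 and RBL2 is a relative of the retinoblastoma protein. In all 5 genes knockdown replicate 1 was the brightest array and wild-type replicate 1 the next. DNAJB1 had 5.85, 4.88 and 5.07 in the knockdown, against 5.28, 5.04 and 5.02 in the wild type. EFCAB14 had 5.76, 4.59 and 4.97 in the knockdown, against 5.24, 4.90 and 4.79 in the wild type.

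Values of this size were more frequent for DDX17 than for DDX5. An r of 0.9 with DDX17 was reached by 121 of the 4240 candidates (2.85%) and -0.9 by 84 (1.98%). EPHB6, an ephrin receptor without kinase activity (-0.989), the homeobox gene CDX2 (-0.985) and MEMO1, a mediator of cell motility (-0.984), were the most opposed. Log2 differences between knockdown and wild type of all 8 genes named with DDX17 ran between -0.11 and 0.15, and none of them passed the adjusted threshold.

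**Figure D4:**
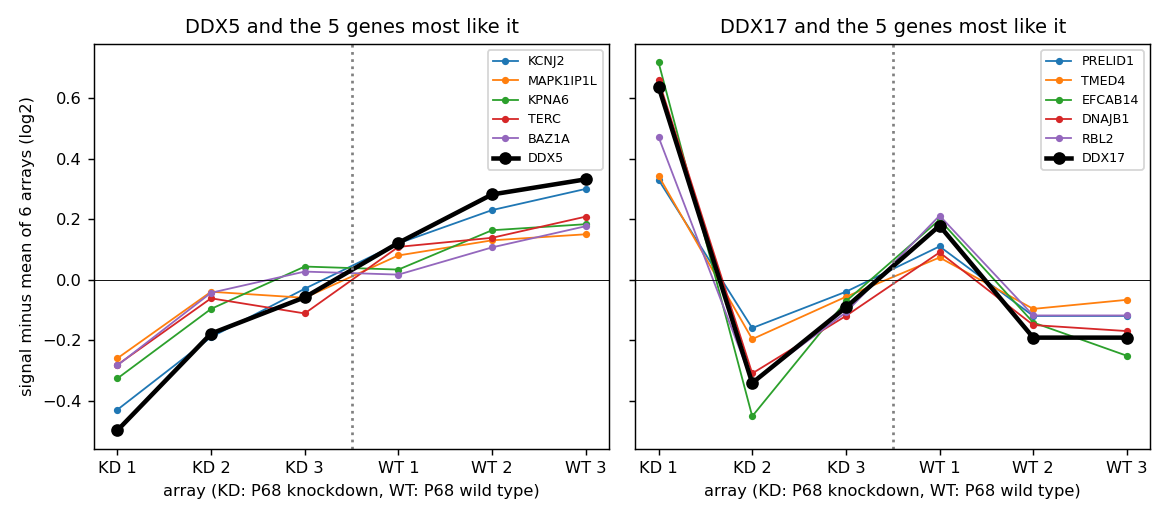
Log2 signal of DDX5 (left) and DDX17 (right), each in black, and of the 5 genes most like it by Pearson's r over 6 arrays, as the difference from each gene's own mean; arrays run along the horizontal axis with the P68 knockdown (KD) left of the P68 wild type (WT). DDX5 and its likenesses are lowest on knockdown replicate 1 and at or above their mean on every wild-type array, whereas DDX17 and its likenesses peak on replicate 1 of both groups.

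Partners of DDX5 and DDX17 were compared as lists by role. Of 15 measured genes of microRNA processing, 13 lay below 0 and 2 above, with a median log2 difference of -0.10 beside 0.01 for all genes, of which 46.6% lay below 0. None passed the adjusted threshold and none had an unadjusted p under 0.05. ILF2, 1 of the 15, was lower without overlap, as were 4.15% of all genes. The lowest difference on the list was -0.36, at a gene below the median signal. AGO3, an Argonaute protein, had 5.61, 5.99 and 5.99 on the knockdown arrays, against 5.93, 6.26 and 6.22 on the wild-type arrays, which overlap, a difference of -0.27 ± 0.14 (SE). XPO5, the exporter of microRNA precursors, gave -0.17 ± 0.23 (SE), the Dicer partner TARBP2 -0.01 ± 0.14 (SE) and the RNA-binding protein KHSRP 0.05 ± 0.10 (SE). The list median was -0.025 without wild-type replicate 1, and -0.05 with knockdown replicate 2 omitted. In the latter setting 10 of the 15 lay below 0, as did 10 with knockdown replicate 1 omitted, where the median was -0.15. The median signal of the list was 5.73, beside 4.67 for all genes, and the part of brightness was not tested.

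Of 10 measured splicing partners, 9 lay below 0, with a median of -0.07, and none had an unadjusted p under 0.05. The list was bright, with a median signal of 7.19 beside 4.67 for all genes. Bright genes tended to lie below 0, with a median difference of -0.09 among the 319 genes near DDX17 in signal. The part of brightness in the list was not tested. MATR3, a nuclear matrix RNA-binding protein, had 7.78, 7.51 and 7.66 in the knockdown, against 7.83, 7.85 and 7.89 in the wild type, a difference of -0.21 ± 0.10 (SE). It and HNRNPH1, at -0.07 ± 0.09 (SE), were lower without overlap. That is 2 of the 10 (20.0%), beside 4.15% of all genes, a higher share that was not tested and rests on 2 genes. SNRPA of the U1 particle gave -0.18 ± 0.12 (SE) and SNRPC of the same particle -0.01 ± 0.11 (SE), while HNRNPM lay above 0 at 0.09 ± 0.10 (SE). The median turned to 0.002 without knockdown replicate 2, with 5 of the 10 below 0. It was -0.03 after cyclic loess and -0.04 with wild-type replicate 1 omitted.

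Transcription factors and cofactors that DDX5 assists were spread around 0. Of 14 measured, 8 lay below 0 and 6 above, with a median of -0.04. None had an unadjusted p under 0.05 (limma), as 5.09% of all genes had. CTNNB1, which encodes beta-catenin, had 9.33, 9.33 and 9.35 in the knockdown, against 9.40, 9.70 and 9.54 in the wild type, a difference of -0.21 ± 0.11 (SE). It was lower without overlap, 1 of the 14, beside 4.15% of all genes. The acetyltransferase EP300 gave -0.22 ± 0.20 (SE) with overlap. SMAD3, a transducer of TGF-beta, was higher without overlap at 0.11 ± 0.09 (SE), 1 of the 14, beside 5.98% of all genes. SRA1, the gene of an RNA coactivator that binds both helicases, gave 0.13 ± 0.11 (SE). Without wild-type replicate 1, and likewise without wild-type replicate 2, the median was -0.02.

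A further list held target genes of those factors and DUSP5, an ERK phosphatase included because the study's title names it. Of these 13 genes, 9 lay below 0 and 4 above, with a median of -0.05, and none passed the adjusted threshold. DUSP5 was the only one with an unadjusted p under 0.05, in the higher direction where 3.02% of all genes were called. It had 5.78, 5.80 and 5.62 in the knockdown, against 5.44, 5.32 and 5.28 in the wild type. MDM2, the p53 antagonist, gave -0.25 ± 0.12 (SE), the AP-1 subunit gene JUN -0.16 ± 0.12 (SE) and the p53 target TP53I3 0.10 ± 0.14 (SE). The median was -0.09 with wild-type replicate 2 omitted and -0.03 with knockdown replicate 3 omitted.

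**Figure D5:**
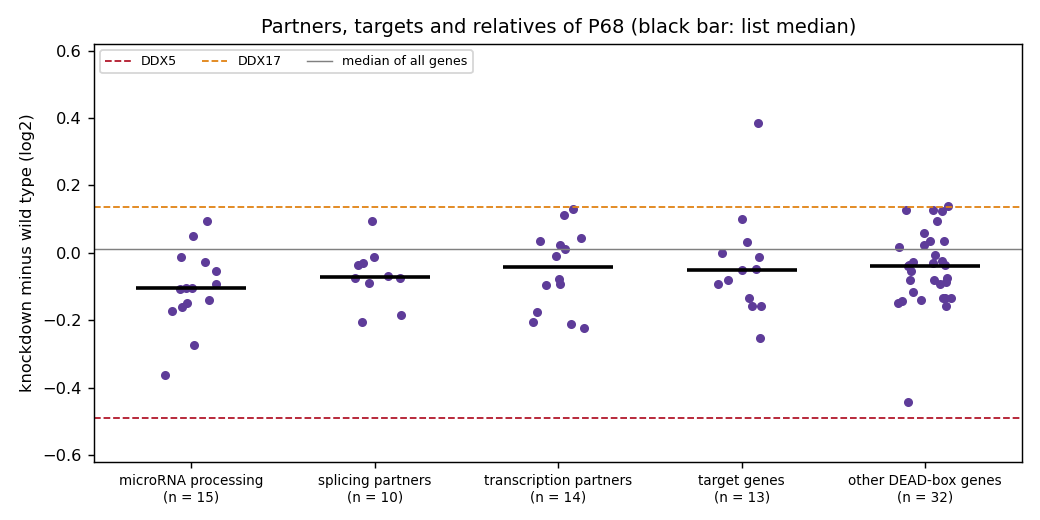
Log2 difference between P68 knockdown and P68 wild type of each measured member (points, spread sideways for legibility) of 5 gene lists, with the list median as a black bar, the median of all genes in grey and the values of DDX5 (-0.49) and DDX17 (0.14) as dashed lines. All 5 medians lie between -0.10 and -0.04, DDX5 lies below every listed gene, and DUSP5 is the single point well above DDX17.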

How the data were processed

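Total RNA of U-87 cells, 3 samples labelled P68 knockdown and 3 P68 wild type, was hybridised to Affymetrix gene-level arrays. The deposited values are log2 signals, made by the authors with RMA per the submitters' processing notes and rounded to 2 decimals; for software, version, build and filters, nothing is given in the sources used here. The platform annotation paired 19460 probe sets with 1 symbol, 1754 with several and 7882 with none. The brightest probe set represented each of 18417 genes. Groups were compared with limma 3.58.1 in R 4.3.3 (lmFit, eBayes, group as the only term, two-sided, no filter, Benjamini-Hochberg threshold 0.05). The fit was tried on simulated data only with changes larger than that of DDX5, which cannot show how well changes of its size are found. Single values were also tested by exact permutation over arrays (scipy 1.17.1). The interval for the difference between the paralogs' changes is from an unmoderated fit of that difference. Precision is limited by the number of arrays: the median SE was 0.12.

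Members, lists and tests were chosen with earlier results of these data known. Named genes are the pair, the 5 genes most and 3 least like each, 3 neighbours a side, and in each list the 2 lowest and 2 highest differences among genes at or above the median signal. The windows of 0.5 in signal, and any other listed gene named for its lack of overlap, were added after values were seen. A planned ranking of DDX proteins by sequence identity was not run, since no protein sequences were used here. Listed genes without a single-symbol probe set were not analysed here.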

Additional observations from a re-analysis of the deposited data

How the results depend on the processing

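DDX5 stayed below 0 and short of the adjusted threshold under all 15 alternatives fitted with limma, with adjusted p between 0.661 and 0.998. With all arrays kept, its difference ran from -0.51 (arrays centred on their medians) to -0.39 (cyclic loess), and with single arrays left out from -0.58 (knockdown replicate 3 omitted) to -0.36 (knockdown replicate 1 omitted). DDX17 ran from 0.12 to 0.20 with all arrays kept. With single arrays left out it ran from -0.15, its sign turned, with knockdown replicate 1 omitted, to 0.34 with knockdown replicate 2 omitted, and the cause was not tested. The difference between the 2 changes ran from 0.58 to 0.63 with all arrays kept and from 0.215 to 0.865 with single arrays left out. No gene was called at an adjusted p under 0.05 in any of these fits, beside 937 genes at an unadjusted p under 0.05, or 543 with wild-type replicate 2 omitted and 1353 with knockdown replicate 1 omitted (567 and 1517 where fewer or more features were tested). Replicate numbers were checked as pairs: the deviations of same-numbered arrays correlated at 0.268, -0.027 and 0.125, so not every pair exceeded 0.1, and the numbers were not taken to pair the samples. Between arrays of unlike number the correlations ran from -0.251 to 0.17, so that of the replicate 1 arrays was the largest. With a replicate block DDX5 gave -0.49 ± 0.11 (SE, limma adjusted p = 0.791) and DDX17 0.14 ± 0.13 (SE, limma adjusted p = 0.864), and 1149 genes had an unadjusted p under 0.05, with 0 calls. The genes most like each member depended on the measure: of the 5 for DDX5, 1 remained among the top 5 with Spearman's rho and 1 with centring within groups (TERC fell to rank 254 and MAPK1IP1L to 106), and of the 5 for DDX17, 5 and 1 remained. With 3 arrays a group an exact test of 1 value cannot go below 0.1.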
